A study of Homo sapiens with 2 samples.

Results

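YB-1 sites in the first part of the coding sequence (CDS) are described here. A site entered this set when the middle base of a PAR-CLIP cluster of at most 60 bases, outside the mitochondrial genome, lay on the same strand in the CDS of a protein-coding gene, at or before 50% of the spliced CDS counted from the start codon. Each gene was represented by its protein-coding transcript with the longest CDS in GENCODE release 44 (hg38). In all, 164 of 1382 clusters of Rep.A and 198 of 2011 clusters of Rep.B met the rule. Clusters of the replicates that overlapped on the same strand by at least 1 base were joined, which gave 224 sites in 206 genes, out of 2199 sites that all clusters of at most 60 bases outside the mitochondrial genome gave when joined in the same way.

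The data were obtained in wild-type HEK293T, a human embryonic kidney cell line, with 1 condition in Rep.A and Rep.B, no control library and no other genotype or treatment. In PAR-CLIP, 4-thiouridine incorporated into RNA is crosslinked to a bound protein by long-wave UV, and sequencing then shows C at the crosslinked T. Both replicates were labelled with 4-thiouridine (100 µM, 16 h) and exposed to 365 nm light (0.15 J/cm2). RNase T1, an enzyme that cuts after G, shortened the RNA, and YB-1 was precipitated with its RNA by antibodies.

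YB-1, the product of YBX1, is a cold shock domain protein that coats cytoplasmic mRNA and is known as a regulator of translation and mRNA packaging. The coding sequence is the stretch that the ribosome reads in triplets, so a protein bound there meets elongating ribosomes, and bases near the start codon are the first that a ribosome reads. YB-1 is known to prefer pyrimidine-containing single-stranded RNA, and the tetramers CATC and CACC (CAUC and CACC in RNA) have been used to describe its sites.

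The 10 sites with the highest coverage among those that were found in both replicates and had a sequence present once in hg38 are shown together with 4 of the 5 sites nearest a start codon that were found in both, since they carry the strongest and the most 5′ signal (2 sites belong to both sets). They are written 5′ to 3′ on the transcript strand with T for U, each CATC or CACC copy is in capitals, and hg38 positions and exons of the selected transcript precede each sequence.
KPNA2, chr17:68037124-68037145, plus strand, exon 1 of 10: ctcataaccatgtcCACCaacg
ARF1, chr1:228097121-228097144, plus strand, exon 2 of 5: aaCATCttcgccaacctcttcaag
RPS27A, chr2:55232848-55232870, plus strand, exon 1 of 5: tacggggaagacCATCACCctcg
PXN, chr12:120224329-120224353, minus strand, exon 2 of 15: ctacCACCtcccaCATCtccaaacg
RPS4X, chrX:72275662-72275680, minus strand, exon 3 of 7: ccccctCATCattttcctg
UBE2D3, chr4:102802561-102802583, minus strand, exon 4 of 7: actaccccttcaaacCACCtaag
UHMK1, chr1:162499975-162499996, plus strand, exon 2 of 8: acaatccacttttctccaaatg
CCT4, chr2:61878988-61879009, minus strand, exon 5 of 14: attCATCcaacCATCatttctg
RBBP6, chr16:24555842-24555863, plus strand, exon 6 of 18: tcCACCACCtcCATCttacacg
ZNF678, chr1:227654912-227654934, plus strand, exon 4 of 4: tctcaaaccttacacaacataag
RBBP6, chr16:24561992-24562013, plus strand, exon 10 of 18: aCATCttCATCaactCACCcag
KIF1C, chr17:5007026-5007051, plus strand, exon 14 of 23: cattctcccccaacacggagtcccag

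Of these 12 sites, the sites of UHMK1, ZNF678 and KIF1C hold neither tetramer. The others hold from 1 copy, as in RPS4X and UBE2D3, to 3 copies in either RBBP6 site, and overlapping copies are each counted. Every one of the 12 ends in G.

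The highest coverage of a site found in both replicates was that of RPS27A, which encodes ubiquitin fused to a small-subunit ribosomal protein. Its site, at base 35 of the CDS, had a mean coverage of 151 reads per base in Rep.A and 344 in Rep.B. Since hg38 holds this sequence 2 times and the aligner placed a read with several matches at random, the locus of origin is uncertain. Among sequences present once, RPS4X, a small-subunit ribosomal protein, had 33 in Rep.A and 97 in Rep.B at base 135. RBBP6, a ubiquitin ligase that also takes part in mRNA 3′ end formation, held a pair of such sites. The site at base 469 had 23.7 in Rep.A and 102 in Rep.B. At base 1130 the site had 32 and 78. Thus, the order of the RBBP6 sites was opposite in the replicates.

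PXN, the focal adhesion adaptor paxillin, had 29 in Rep.A and 87 in Rep.B at base 50 of its CDS. KIF1C, a kinesin motor, had 27.6 and 86.2 at base 1291. ZNF678, a zinc finger protein, had 34.4 and 74 at base 673. Among these, ZNF678 was highest in Rep.A and lowest in Rep.B, while PXN was above KIF1C in both. The sites were selected on the geometric mean of both replicates, so opposite orders among them say little. UHMK1, a protein kinase, had 36 and 73 at base 299. CCT4, a subunit of the cytosolic chaperonin, had 33 and 70 at base 393. UBE2D3, a ubiquitin-conjugating enzyme, had 30.9 and 70.9 at base 193. Their values lie side by side in the plot of named sites.

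**Figure D1:**
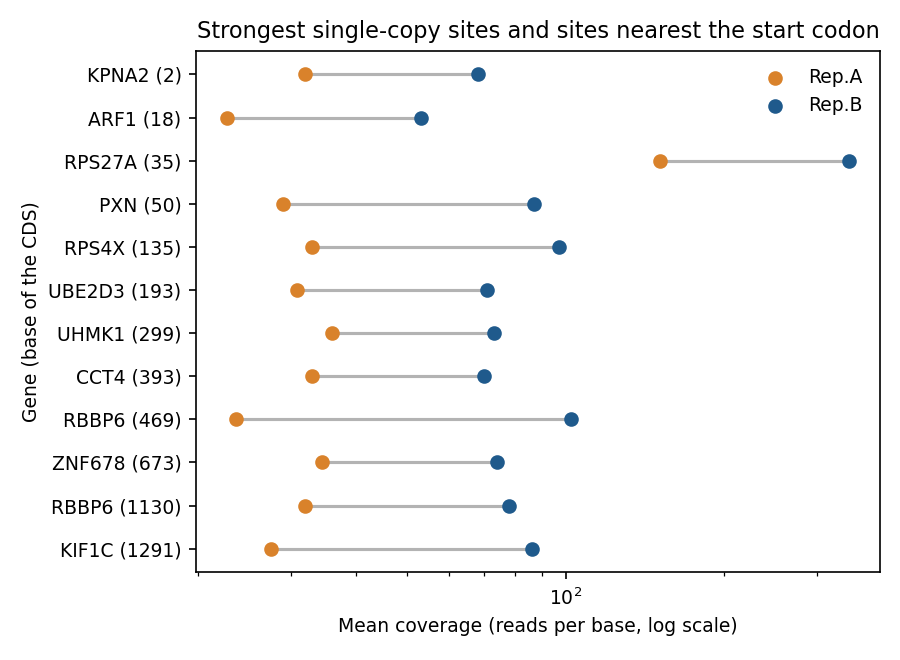
Mean coverage (reads per base, log scale) in Rep.A (orange) and Rep.B (blue) of the 12 sites printed in the first set of sequences, ordered by the base of the CDS given in brackets. RPS27A is highest in both replicates (151 and 344), ARF1 is lowest (22.8 and 53.2), and Rep.B exceeds Rep.A at every site.

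The site nearest a start codon lay in KPNA2, an importin alpha that carries proteins into the nucleus. Its middle base was base 2 of the CDS, and its first 9 bases lay in the 5′ UTR, so that the start codon ATG was inside the site. This was the single site of the 224 that reached outside the CDS. KPNA2 had a coverage of 32 in Rep.A and 68 in Rep.B. Among sites found in both, ARF1, a small GTPase of vesicle transport, followed at base 18 with 22.8 in Rep.A and 53.2 in Rep.B. RPS27A and PXN, described above, were also among the 5 sites found in both nearest a start codon.

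Sites were not gathered at the start codon. Of the 224 sites, 20 lay within 100 bases of it, 75 within 300 bases and 49 beyond 1000 bases, with a median of base 432.5 and a range from base 2 to base 3624. In steps of 10% of the CDS from the start codon, 25, 35, 56, 49 and 59 sites were counted. The next steps, beyond the boundary at 50%, held 79, 99, 53, 78 and 64 sites. The first part held 37.5% of the 597 coding sites (95% Wilson interval 33.7 to 41.5%), although both parts have the same length in each transcript. Median coverage was between 11.8 and 16 in Rep.A and between 30.9 and 46.5 in Rep.B over the 5 steps of the first part. Here and below, intervals cover counting error only. The tables hold no reads, and independent molecules cannot be separated from PCR duplicates.

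**Figure D2:**
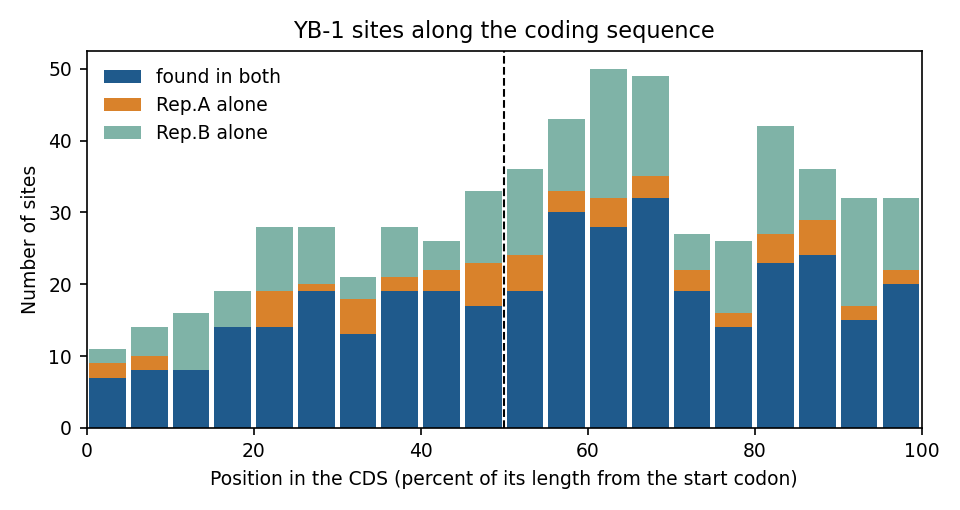
Number of sites in steps of 5% of the CDS length from the start codon (x axis, percent), stacked by replicate: found in both (blue), Rep.A alone (orange) and Rep.B alone (green). The dashed line at 50% divides the 224 sites of the first part from the 373 sites of the second part, and the first 5% of the CDS has the lowest bar (11 sites).

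Just inside the boundary were the alpha-tubulin gene TUBA1B at 49.9% of the CDS (35 in Rep.A, 108 in Rep.B) and the beta-tubulin gene TUBB at 49.8% (20 in Rep.B, not found in Rep.A). Just outside it were TLE4, a transcriptional corepressor, at 50.1% (14.8 in Rep.B, not found in Rep.A) and WASF1, an actin regulator, at 50.1% (5.91 and 25.6).

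By exon, 21 of the 224 sites lay in exon 1 and 45 in exon 2 of the selected transcript, with a median of exon 4. The CDS of 1 site lacked its annotated start, so that its position is counted from the first annotated base. Another 4 sites lay in the first part of the CDS of 2 genes, and 3 sites also fell into another transcript region of a second gene. The genes with a site had a median CDS length of 1560 bases, against 1305 bases over all 19689 protein-coding genes. Longer coding sequences offer more positions, but the part of CDS length in this difference was not tested.

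Of the 224 sites, 138 were found in both replicates (61.6%, 95% Wilson interval 55.1 to 67.7%), 26 in Rep.A alone and 60 in Rep.B alone. Over all 2199 sites the share found in both was 48.1%. The share was 60.1% (55 to 64.9%) for the second part of the CDS and 59.9% (54.9 to 64.8%) for 3′ UTRs, and these intervals overlap that of the first part. In 105 of the 138 sites the clusters of the replicates had identical bounds. Over all sites found in both, this held for 760 of 1057. It held for 182 of 224 in the second part of the CDS and for 181 of 223 in 3′ UTRs. None of the sites found in a single replicate overlapped a cluster of the other replicate that was no member (0 of 86 sites, where a count of 0 allows a share of up to 3.49%). By the rule, such a cluster needs a middle base outside the first part or more than 60 bases, so this count says little. A site found in both was present in 132 of the 206 genes.

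**Figure D3:**
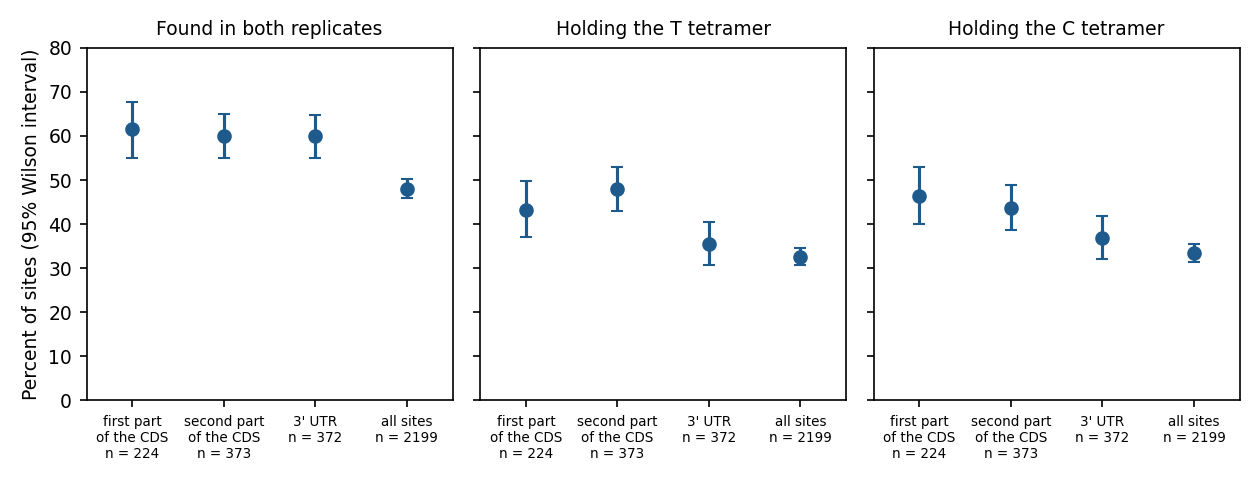
Percent of sites (y axis, with 95% Wilson intervals) that were found in both replicates (left) and that hold the tetramer ending in TC (middle, "T tetramer") or in CC (right, "C tetramer"), for the first and second parts of the CDS, the 3′ UTR and all sites. The first and second parts of the CDS overlap in all 3 panels, and both lie above all sites.

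Coverage is not scaled for library depth in the deposited tables. In Rep.A the clusters of the first part had a median coverage of 13.8 reads per base (quartiles 9 and 21.4), and in Rep.B 35.7 (22 and 54.9). Over the 138 sites found in both, the log2 difference of Rep.B minus Rep.A had a median of 1.42 with an SD of 0.51 between sites, and Rep.B was higher at 138 of 138. Over all sites found in both, the median was 1.39, which carries the difference in depth between the libraries. Rep.B was higher at 1037 of these 1057 sites, and at 222 of 224 in the second part of the CDS. In the first part, the differences ran from 0.29 in SLC25A38, a mitochondrial carrier (18 in Rep.A and 22 in Rep.B), to 2.84 in TRIM24, a transcriptional cofactor (6 and 43). Across the 138 sites of the first part, log2 coverage in the replicates correlated with a Pearson r of 0.831 and a Spearman rho of 0.801. The sites share their libraries and are not independent replicates, so no p was computed. Over sites with a sequence present once in both clusters, r was 0.770.

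**Figure D4:**
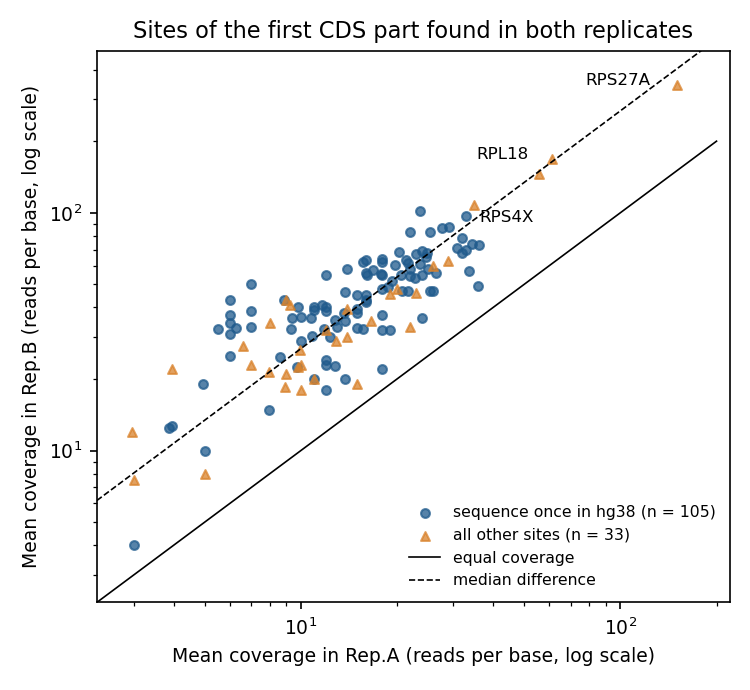
Mean coverage in Rep.A (x axis) and Rep.B (y axis), in reads per base on log scales, of the 138 sites found in both. Blue circles are the 105 sites with a sequence present once in hg38 and orange triangles are the 33 others. All points lie above the line of equal coverage, and the dashed line is the median log2 difference of 1.42.

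The share of clusters found again rose with coverage. In Rep.B, 40% of the clusters in the lowest coverage quartile were found in Rep.A (95% Wilson interval 27.6 to 53.8%), and 86% of those in the highest (73.8 to 93%). In Rep.A, the shares found in Rep.B were 68.3% (53 to 80.4%) and 92.7% (80.6 to 97.5%). Sites with a sequence present once were found in both in 64.4% of cases (105 of 163, 56.8 to 71.4%). Sites with several copies were found in both in 46% of cases (23 of 50, 33 to 59.6%), and their median coverage was also lower, with 10 in Rep.A and 21.2 in Rep.B against 15 and 38.5.

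**Figure D5:**
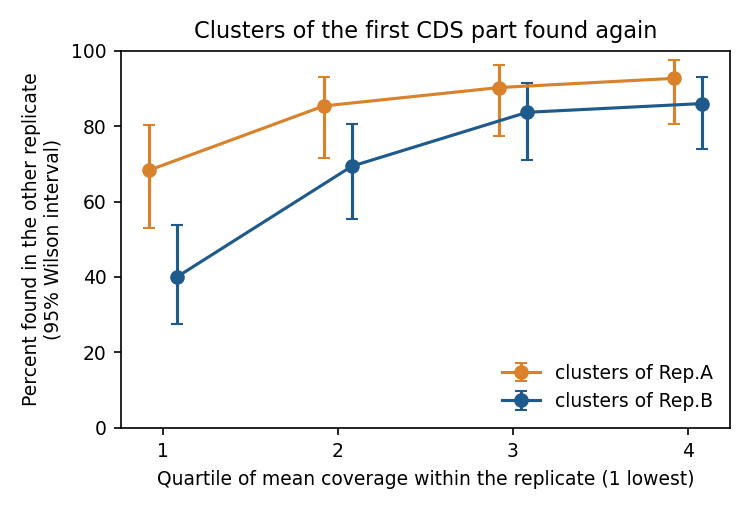
Percent of clusters of the first part of the CDS found in the other replicate (y axis, with 95% Wilson intervals), by quartile of mean coverage within Rep.A (orange) and Rep.B (blue). The share increases from 68.3% to 92.7% in Rep.A and from 40% to 86% in Rep.B.

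High coverage in 1 replicate did not always come with a cluster in the other, as the 2 strongest sites of Rep.B alone show.
FOXC1, chr6:1610780-1610802, plus strand, exon 1 of 1: tccccttctaccgggacaacaag
GAPDH, chr12:6536771-6536788, plus strand, exon 4 of 9: ccCATCACCATCttccag

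FOXC1, a forkhead transcription factor with a single exon, had 360 reads per base in Rep.B and no cluster in Rep.A, although its sequence is present once in hg38. That was the highest coverage of any first-part cluster in Rep.B, above RPS27A. The site holds neither tetramer. GAPDH, the glycolytic enzyme, had 243 in Rep.B and no cluster in Rep.A, and its sequence of 18 bases occurs 13 times in hg38. TUBA1B followed with 127 in Rep.B at base 151. In Rep.A alone, the highest values were lower: HSP90AB1, a cytosolic chaperone, had 30.7, SMN2, which acts in assembly of spliceosomal particles, had 27.7, and HDGF, a heparin-binding growth factor, had 24. The sequences of the HSP90AB1 and SMN2 sites occur 2 times in hg38, and that of HDGF once.

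Near-identical genes held sites of the same or nearly the same sequence, which the alpha-tubulin sequences show.
TUBA1A, chr12:49186676-49186697, minus strand, exon 2 of 4: attccttcaaCACCttcttcag
TUBA1C, chr12:49269601-49269622, plus strand, exon 2 of 4: attccttcaaCACCttcttcag
TUBA1B, chr12:49129565-49129586, minus strand, exon 2 of 4: actccttcaaCACCttcttcag

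The TUBA1A and TUBA1C sequences are identical, and the TUBA1B sequence differs from them by 1 base. In the selected transcripts, the site lay at base 151 of the CDS in TUBA1A and TUBA1B and at base 360 in TUBA1C. TUBA1A had 15 in Rep.A and 19 in Rep.B. TUBA1C had 22 and 33, while TUBA1B was found in Rep.B alone with 127. The values of these genes share reads with their copies and cannot be assigned to 1 gene. The same holds for the mitochondrial carriers SLC25A51 (8.95 in Rep.A, 18.6 in Rep.B) and SLC25A52 (12.9 and 28.8), whose sites, at bases 72 and 102 of the CDS, have 1 sequence with 3 copies in hg38. It holds as well for HMGB1, a chromatin protein (5 and 8), and HMGB1P1 (7 in Rep.B alone).

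In all, 163 sites had a sequence present once in hg38 (72.8%, 95% Wilson interval 66.6 to 78.2%), 50 had several copies and 6 were shorter than the 18 bases needed for the search. In the other 5, among them ACTG1 and PCBP1, the cluster of 1 replicate was too short and that of the other was present once. Over all 2199 sites, 49.2% were present once and 41.9% had several copies. The share present once was 67.6% in the second part of the CDS and 79.6% in 3′ UTRs. Among multi-copy sites found in both replicates, those of RPL18, TUBA1B at base 675, HNRNPK and PPP2R5C had the highest coverage after RPS27A. RPL18, a large-subunit ribosomal protein, had 60.9 in Rep.A and 168 in Rep.B (4 copies), and TUBA1B had 35 and 108 (2 copies). HNRNPK, a poly(C)-binding protein, had 29 and 62.8 (2 copies), and PPP2R5C, a phosphatase subunit, had 23 and 46 (2 copies).

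Most genes, 192 of 206, held 1 site, 12 held 2, and SRRM2 and MED13 held more. SRRM2, a splicing coactivator of nuclear speckles, held 5 sites within 1148 bases of exon 11.
SRRM2, chr16:2762666-2762687, plus strand, exon 11 of 15: ctcactctagaaCACCtcaaag
SRRM2, chr16:2763032-2763058, plus strand, exon 11 of 15: attccagttCATCtcctCATCctaaag
SRRM2, chr16:2763262-2763283, plus strand, exon 11 of 15: tCATCATCtccacaacccaaag
SRRM2, chr16:2763710-2763724, plus strand, exon 11 of 15: ctcaaacttCACCag
SRRM2, chr16:2763792-2763813, plus strand, exon 11 of 15: caaatctcaaaCATCACCtaag

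In SRRM2, the 4 sites found in both had a coverage of 19.3, 13.7, 18 and 20 in Rep.A and of 51.6, 35, 48 and 48 in Rep.B, in order from the start codon. The last site, at base 3274, had 38 in Rep.B and no cluster in Rep.A. No rise or fall of coverage along the exon was seen in both replicates, and each of the 5 sites holds CATC or CACC. MED13, a subunit of the Mediator kinase module, held 3 sites in exons 9, 15 and 16. The site at base 2764 was found in both (9.38 in Rep.A and 36 in Rep.B), that at base 1895 in Rep.A alone (20) and that at base 3012 in Rep.B alone (31).

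Neighbouring sites of 1 gene lay from 31 bases apart in OTUD5, a deubiquitinase, to 869 bases apart in MED13. Of the 206 genes, 38 also held a site in the second part of the CDS and 27 one in the 3′ UTR, and 143 held first-part sites alone among these regions and the 5′ UTR.

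CATC was present in 97 of the 224 sites (43.3%, 95% Wilson interval 37 to 49.9%), against 32.7% of all 2199 sites. CACC was present in 104 (46.4%, 40.01 to 53%), against 33.4% of all sites. Either was present in 163 sites (72.8%, 66.6 to 78.2%), against 54.5% of all sites and 71.8% in the second part of the CDS. Both were present in 38 (17%), against 11.6% and 19.8%. In 71 sites 2 or more copies were present, which was not counted over all sites. Both tetramers were searched on the transcript strand alone, and copies may overlap. For the second part of the CDS the shares were 48% for CATC (43 to 53.1%) and 43.7% for CACC (38.8 to 48.8%), which overlap those of the first part. For 3′ UTRs they were 35.5% (30.8 to 40.5%) and 36.8% (32.1 to 41.8%).

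Of all 22-base windows in the first part of the CDS of the same 206 genes, 10.7% hold CATC and 11% hold CACC, and over all protein-coding genes the values are 9.37% and 9.83%. The typical site was also 22 bases long in either replicate (medians), and the share in sites was 4.05 times that in windows for CATC and 4.23 times for CACC. Base composition differed too. The sites were 38.5% C, 29.6% A, 23.1% T and 8.80% G, while each base made up between 22.6% and 26.9% of the 50 bases on either side. The last base was G in 214 sites (95.5%, 92 to 97.6%), and 130 sites (58%) held no G before it. By cluster, G came last in 97% in Rep.A and 94.4% in Rep.B, against 83.3% and 77.7% of all clusters. In the second part of the CDS these shares were 95.3% and 96.5%, and in 3′ UTRs 96.2% and 96.1%. Just before the site, G was found in 118 of 223 (52.9%, 46.4 to 59.4%). RNase T1 cuts after G, and its part in the composition and in the tetramer shares was not tested.

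Sites with a tetramer were found in both replicates in 64.4% of cases (105 of 163, 56.8 to 71.4%) and sites with neither in 54.1% (33 of 61, 41.7 to 66%), intervals that overlap. Their median coverage was alike, with 13.8 and 13.9 in Rep.A and 36.5 and 32.5 in Rep.B.

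In the reading frame, CATC can begin at each base of a codon, and when it begins at the third base the next codon is ATC (isoleucine). Of 122 CATC copies inside the sites, 66 began at the third base (54.1%, 95% Wilson interval 45.3 to 62.7%). In the first part of the CDS of the same genes, 60.1% of 1405 copies did so. In sites of the second part, the share was 73.4% (168 of 229, 67.3 to 78.7%), against 59.9% of 2289 copies in the second part of the CDS of those genes. Thus, the intervals of the parts did not overlap at the third base, while the surrounding coding sequence was alike. The first-part interval held the 60.1% of its own coding sequence. With 1 copy per gene the shares at the third base were 54.8% (51 of 93, 44.7 to 64.6%) and 72.6% (119 of 164, 65.3 to 78.8%). The planned measure was the first base. There the shares were 19.7% in the first part (13.6 to 27.6%) and 10.9% in the second (7.5 to 15.6%), intervals that overlap. At the second base, 26.2% (19.2 to 34.7%) and 15.7% (11.6 to 21%) overlap as well. CACC began at the third base in 50.4% of 127 copies in the first part (41.8 to 58.9%) and in 49.1% in the second (42.6 to 55.6%).

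Among the 1551 whole codons inside the sites, ACC (threonine) made up 6.77%, ATC (isoleucine) 6.25%, AAC (asparagine) 6.06% and TCC (serine) 5.35%. In the first part of the CDS of the same genes these codons made up 1.95%, 2.07%, 1.89% and 1.76%. By residue, threonine made up 14.3% of the codons in sites against 5.64%, isoleucine 9.22% against 4.44%, and asparagine 7.54% against 3.58%. Leucine, at 9.03% against 8.79%, and lysine, at 6.32% against 6.29%, differed little. These frequencies follow from the same bases as the composition above and are no separate evidence.

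Most clusters had a single position with T-to-C transitions. More than 1 such position was found in 25 of 164 clusters in Rep.A (15.2%, 10.5 to 21.5%) and in 39 of 198 in Rep.B (19.7%, 14.8 to 25.8%). Over all clusters of at most 60 bases outside the mitochondrial genome, the shares were 13.8% and 14.4%. In the second part of the CDS they were 17.9% and 19.1%, so the first part was near these shares. Among the named sites, UHMK1 had 3 in each replicate, and ARF1, RPL18, FTL, MDH2, PDHA1, SMC1A, SLC25A38, TRIM24 and H2BC4 had 2 in each.

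By function, the genes were compared with 11 lists, and 45 of the 206 genes were in a list. The lists do not hold every gene of their kind. Over all protein-coding genes, 1.05% held a first-part site. Expression is not in the tables, so the part of mRNA abundance in the shares of the lists was not tested.

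Cytosolic ribosomal protein genes held a site in 9 of 85 cases (10.6%), 7 of the sites were found in both replicates and 1 had a sequence present once (RPS4X). In the second part of the CDS, 20 of these genes held a site. Of all 19689 protein-coding genes, 319 held a site in the second part and 206 in the first. Beside RPS27A, RPL18 and RPS4X, RPSA, the small-subunit protein that also acts as a laminin receptor, had 10 in Rep.A and 23 in Rep.B. RPS18, a small-subunit protein, was found in Rep.B alone with 46.5.

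Translation factors held a site in 4 of 53 cases (7.55%), with 6 sites. EEF2, the factor that moves the ribosome along the mRNA, held a pair found in both replicates. The site at base 571 had 55.6 in Rep.A and 145 in Rep.B. At base 1078 the site had 35.8 and 49.1. EIF2S1, the eIF2 subunit that is phosphorylated in stress, had 13.8 and 20. Its log2 difference of 0.54 was below the median of 1.42 by more than the SD of 0.51, which was not particular to EIF2S1. EEF2 at base 1078 was lower still with 0.45. Outside this list, GMNN with 0.42, TUBA1A with 0.34 and SLC25A38 with 0.29 were lower as well. EEF1G, an elongation factor subunit, had 6.57 and 27.4 at base 111. The EEF1A1 site was found in Rep.A alone with 2.95 and has 16 copies in hg38.

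Chaperone and proteasome genes held a site in 6 of 74 cases (8.11%). Beside CCT4, HSPA8, the constitutive Hsp70, had 21.7 in Rep.A and 61.7 in Rep.B, CCT3, another chaperonin subunit, had 15 and 37.9, and PDIA3, a disulfide isomerase of the endoplasmic reticulum, had 16.6 and 35.2. No proteasome subunit was among the 6 genes. Of the genes of actin, tubulin and actin-binding proteins, 6 of 48 held a site (12.5%). ACTG1, cytoplasmic gamma-actin, had 26 and 59.9. MYH9, a non-muscle myosin heavy chain, had 5.52 and 32.4. ACTA1, skeletal muscle alpha-actin, is not in this list and had 16.3 in Rep.B alone.

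Genes of the cell cycle and DNA replication held a site in 6 of 65 cases (9.23%), all 6 sequences were present once, and 5 sites were found in both. MCM6, a subunit of the replicative helicase, had 18 in Rep.A and 55 in Rep.B. MCM4, another subunit, had 16 and 56. RFC1, of the clamp loader, had 18 and 32, and SMC1A, of cohesin, had 12 and 40. GMNN, the replication licensing inhibitor geminin, had 3 and 4, the lowest of these.

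Nuclear-encoded mitochondrial protein genes held a site in 5 of 103 cases (4.85%). PDHA1, of pyruvate dehydrogenase, had 16 in Rep.A and 45 in Rep.B, MDH2, malate dehydrogenase, had 15.7 and 32.5, and VDAC1, the outer membrane channel, had 7.95 and 21.4. Of hnRNP, SR and helicase genes, 4 of 67 held a site (5.97%). MATR3, a nuclear matrix RNA-binding protein, had 22 and 83.3 at base 292 and 17.6 in Rep.A alone at base 1083, and PCBP1, a poly(C)-binding protein, had 14 and 39.5.

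The other lists held few sites. In glycolysis, LDHB, a lactate dehydrogenase subunit, had 10.8 in Rep.A, 30.3 in Rep.B, and was the single gene beside GAPDH. KARS1, the lysyl-tRNA synthetase, was the single gene of 37 in the list of tRNA synthetases and amino acid synthesis (9.78 and 40). AARS2, the mitochondrial alanyl-tRNA synthetase, is not in that list and had 24 in Rep.B alone. In the list of histone and HMG proteins, HMGB1 was the single gene of 29 with a site, but the list does not hold all histone genes. Outside it, the histone H2B gene H2BC4 had 20.2 in Rep.A and 68.6 in Rep.B at base 160, with a sequence present once. H2BC12L had 38.3 and H2BC15 had 30.8, both in Rep.B alone and with several copies in hg38. FTL, the ferritin light chain, had 8 and 34.3 at base 91, with 3 copies in hg38. ATF4, a transcription factor of the stress response, had 2.96 and 12 at base 425, also with 3 copies. YBX1, YBX3, GCN1, ACTB and FTH1 held no first-part site in either replicate.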

How the data were processed

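The authors used cutadapt 2.10 for trimming, Bowtie 1.0.0 for alignment to hg38, with a random position for a read with several matches, and wavClusteR for calling clusters in each replicate. Mean coverage, as deposited, is a signal (reads per base) without scaling for depth. The deposited tables also give T-to-C transitions and T bases as counts, the crosslinking efficiency as a fraction and log odds as a score. Deposited sequences are on the plus strand. Here they were put on the transcript strand, and all 362 then matched hg38. Where a replicate had more than 1 cluster in a site, the highest coverage was used. Exact copies of sequences of 18 to 60 bases were counted on both strands of hg38.

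There was 1 condition with 2 replicates, so no test was run, and shares have Wilson intervals at 95%. Members, gene lists and tetramers were chosen with earlier results of these data known. The rule for named genes covered the 10 single-copy sites with the highest coverage in both replicates and genes with 3 or more sites. It also covered the 5 sites found in both nearest a start codon and the 3 strongest sites of each replicate alone. Up to 4 genes a list and the 5 strongest multi-copy sites found in both were covered too. The last group was YBX1, YBX3, ATF4, GCN1, EIF2S1, ACTB, FTL and FTH1. Other genes were named after their values were seen. Some genes and 1 list covered by the rule are not reported here. Alternatives covered copies, coverage, transcript, width, overlap, score and single replicates. The assignment to parts of the CDS was tested on simulated data. Python 3.11.15, pandas 2.3.3, numpy 2.4.6, pysam 0.24.0 and matplotlib 3.10.9 were used.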

Additional observations from a re-analysis of the deposited data

How the results depend on the processing

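Of 95 values recomputed for 15 results under 13 alternatives, 93 stayed within 1.5 times (counts), the 95% interval (shares and correlations) or 1 SD between sites (medians). With clusters under a coverage of 10 left out, 53.1% of sites were found in both, against 61.6%. With sequences present once in hg38, Pearson r was 0.770, against 0.831. The cause was not tested in either case. The number of sites was 164 in Rep.A and 198 in Rep.B when the other replicate was left out, and the numbers of genes and the shares stayed within the ranges above. A site found in 1 replicate is not shown to be absent from the other. No paired analysis was possible because there was 1 group and no test.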
